A study of Mus musculus with 9 samples.

Results

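The genes described here are those that encode the subunits, assembly factors and regulators of the mouse proteasome, including the immunoproteasome. They were chosen by name: every gene whose single symbol in the array's annotation begins with Psma to Psmg followed by a number, which gave 49 of the 18193 genes on the array. The symbol rule used no measured value, except that the probe set with the highest mean over the 9 arrays stood for each gene. It was chosen with earlier results of these data known. The symbol rule also matched Psmc3ip and Psme3ip1, which are not proteasome subunits, so 47 of the 49 are proteasome genes. They fall into 7 alpha and 7 beta subunits of the core particle, 9 base and 8 lid subunits of the regulatory particle, 4 genes of the immunoproteasome and its activator, 7 assembly chaperones, 3 other activators and inhibitors and 2 tissue-restricted core subunits. The immunoproteasome gene Psme2 is not analysed here, because its probe set is annotated to Psme2b as well.

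The proteasome is the protease that degrades proteins tagged with ubiquitin chains in the cytosol and nucleus. Its core particle is a barrel of stacked rings, in which alpha subunits form the gates and beta subunits the proteolytic chamber, and a regulatory particle with a base and a lid recognises, unfolds and feeds in the substrate. In lymphocytes and in cells exposed to interferon gamma, the catalytic beta subunits Psmb5, Psmb6 and Psmb7 are replaced in new particles by Psmb8, Psmb9 and Psmb10. The resulting immunoproteasome, together with the activator made of Psme1 and Psme2, is known for producing peptides that are loaded on MHC class I.

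The study measured mouse CD4 T cells on 9 whole-genome Affymetrix arrays, 3 in each of 3 groups that its design text calls biological replicates. The pltTGFβ_iTreg and purTGFβ_iTreg groups held regulatory T cells induced in vitro (iTreg) from EGFP-negative CD4+ spleen cells of Foxp3EGFP reporter mice on the B6 background, in which a fluorescent protein marks expression of Foxp3. Both were cultured for 72 hours with anti-CD3 at 2.5 µg/ml, anti-CD28 at 1 µg/ml and IL2 at 100 U/ml. They differed in the source of TGFβ, which was a freeze-thaw lysate of platelets from wild-type C57BL/6 mice for pltTGFβ_iTreg and purified TGFβ1 at 5 ng/ml for purTGFβ_iTreg. The third group, Tconv, consisted of conventional T cells. A treatment note common to all samples has the Tconv cells cultured with TGFβ1, so how they were treated cannot be settled from the labels. The labels do not state a sort for the reporter after culture, so an iTreg culture may hold cells that did not convert.

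T cell markers were measured in every group. Mean log2 values in pltTGFβ_iTreg, purTGFβ_iTreg and Tconv were 12.38, 12.37 and 12.80 for Cd3d and 8.06, 7.95 and 8.67 for Cd4. Of 7 measured T cell markers, 1 was called higher and 2 lower in pltTGFβ_iTreg against Tconv, and 2 lower in purTGFβ_iTreg against Tconv. Over all genes, 13.9% were called higher and 14.7% lower in pltTGFβ_iTreg against Tconv, and 14.5% and 14.9% in purTGFβ_iTreg. Some markers of other cells were dim, with Cd8a at 4.31, 4.46 and 4.51, Cd79a at 3.84, 3.64 and 3.91 and Cd14 at 3.46, 3.28 and 3.49. The 5 measured CD8 or NK markers summed on the linear scale to 286 to 309 in pltTGFβ_iTreg, 269 to 331 in purTGFβ_iTreg and 281 to 315 in Tconv. Against Tconv 1 of them was called higher and 1 lower in pltTGFβ_iTreg, and 1 higher and 2 lower in purTGFβ_iTreg. In pltTGFβ_iTreg against purTGFβ_iTreg 1 was called higher and 1 lower, where 1.54% and 2.57% of all genes were. The B cell list stood out through Ighm. Its summed linear signal over 8 genes was 2208 to 2328 in pltTGFβ_iTreg and 2367 to 2645 in purTGFβ_iTreg, against 1709 to 1722 in Tconv. Ighm was the only B cell gene of the 8 called higher against Tconv, and 2 of the 8 were called lower in pltTGFβ_iTreg and 3 in purTGFβ_iTreg. The platelet list summed to 198 to 229 in pltTGFβ_iTreg and 157 to 180 in purTGFβ_iTreg, against 362 to 364 in Tconv. The 9 myeloid markers summed to 144 to 156 in pltTGFβ_iTreg and 139 to 160 in purTGFβ_iTreg, against 167 to 200 in Tconv. Of these 9, limma called 1 lower in pltTGFβ_iTreg against Tconv and 0 in purTGFβ_iTreg. The part of these cell types in the results below was not tested. Xist, the RNA that marks the inactive X chromosome of female cells, averaged 3.94 ± 0.05 in pltTGFβ_iTreg, 3.61 ± 0.21 in purTGFβ_iTreg and 10.81 ± 0.16 in Tconv (log2, SD, n = 3 each), so the sex of the animals cannot be told apart from the iTreg groups' differences from Tconv. Of the members, Psmd10 lies on the X chromosome.

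Promoter sequences are shown for the 4 genes that the results turn on: Psmb9, the member with the lowest adjusted p between the iTreg groups, Psmb8, its partner in the immunoproteasome, Psmb6, the lowest catalytic subunit relative to Tconv, and Psmc6, the member with the largest positive difference from Tconv in pltTGFβ_iTreg. Each line gives the 250 bases before the RefSeq gene start in assembly GRCm38.p6, 5′ to 3′ on the gene's strand, with a motif match in capitals. The capitals mark TTCNNNGAA (the GAS element that STAT factors bind) in Psmb8, ATTGG (the reverse of the CCAAT box) in Psmb9, TGACNNNGC (the core of the antioxidant response element, which the factors Nfe2l1 and Nfe2l2 bind) in Psmb6, and the reverse of that core, GCNNNGTCA, in Psmc6.
Psmb8, chr17:34197945-34198194, plus strand: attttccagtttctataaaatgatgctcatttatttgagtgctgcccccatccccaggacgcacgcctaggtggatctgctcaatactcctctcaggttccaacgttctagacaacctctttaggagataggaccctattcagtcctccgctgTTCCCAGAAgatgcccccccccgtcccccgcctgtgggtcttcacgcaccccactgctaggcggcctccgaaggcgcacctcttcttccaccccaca
Psmb9, chr17:34187331-34187580, minus strand: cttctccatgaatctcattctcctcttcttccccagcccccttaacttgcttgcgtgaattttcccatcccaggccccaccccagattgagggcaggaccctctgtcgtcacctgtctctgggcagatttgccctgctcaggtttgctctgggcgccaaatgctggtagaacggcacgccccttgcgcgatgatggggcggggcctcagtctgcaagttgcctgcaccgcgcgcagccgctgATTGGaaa
Psmb6, chr11:70525107-70525356, plus strand: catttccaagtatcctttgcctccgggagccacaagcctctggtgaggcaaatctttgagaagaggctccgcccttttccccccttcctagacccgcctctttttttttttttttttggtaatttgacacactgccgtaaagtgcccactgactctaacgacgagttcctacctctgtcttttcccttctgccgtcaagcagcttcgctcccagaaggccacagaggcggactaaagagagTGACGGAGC
Psmc6, chr14:45329574-45329823, plus strand: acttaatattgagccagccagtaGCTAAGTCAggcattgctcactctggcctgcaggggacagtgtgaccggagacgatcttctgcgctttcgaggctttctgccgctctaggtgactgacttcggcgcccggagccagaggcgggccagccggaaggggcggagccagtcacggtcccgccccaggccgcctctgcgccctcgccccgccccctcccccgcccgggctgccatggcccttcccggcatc
The Psmb8 match lies 97 to 89 bases before the start, the Psmb9 match 8 to 4, the Psmb6 match 9 to 1 and the Psmc6 match 227 to 219. The start of Psmb9 lies 226 bases from that of Tap1, a peptide transporter gene read from the opposite strand, so these genes share the stretch printed for Psmb9.

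The same motifs were counted on both strands in the windows of all genes. RefSeq promoters were at hand for 41 members in 44 windows and not for 8 members. The antioxidant response core was in 5 of the members' windows (11.4%, in Psmb5, Psmb6, Psmc6, Psmd12 and Psmd9), against 10.2% of 32851 windows of all genes. The GAS element was in 2 (4.55%, in Psmb8 and Psmg1), against 7.02% of all windows. The core of the interferon-stimulated response element (ISRE) was in 3 (6.82%, in Psmb3, Psmd4 and Psmd9), against 2.98% of all, and in 0 of the 4 immunoproteasome windows. The CCAAT box was in 16 (36.4%), against 33.8% of all windows. A match in a window is a run of letters and not a measured binding site.

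Nearly all proteasome genes gave bright and reproducible signals. Group means of the 45 proteasome genes other than the tissue-restricted pair lay between 8.21 and 12.66 on the log2 scale of the deposited values, and the SD of 3 arrays had a median of 0.053 and a maximum of 0.234. The tissue-restricted genes Psma8, a testis subunit, and Psmb11, the subunit of thymic cortical epithelium, had group means of 3.01 to 3.51. Neither was called in any comparison. Psmb11 in purTGFβ_iTreg against Tconv, at −0.50 (adjusted p = 0.0223) with arrays that did not overlap, missed the fold cutoff.

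Against Tconv, few proteasome genes passed both cutoffs of a call. A gene was called higher or lower where the moderated limma test over all 9 arrays gave an adjusted p below 0.1 together with a log2 difference of more than 0.5 in size, which are the study's own cutoffs. In pltTGFβ_iTreg 4 of the 49 members were called higher (Psmc6, Psmd6, Psmd14 and Psme4), where 13.9% of all genes were, and 4 lower (Psmb6, Psmb10, Psmg4 and Psmf1), where 14.7% were. In purTGFβ_iTreg 3 were called higher (Psmc6, Psmd6 and Psme4), with 14.5% of all genes, and 9 lower (Psmb3, Psmb6, Psmb7, Psmb10, Psmd13, Psmg1, Psmg3, Psmg4 and Psmf1), with 14.9%. Both lower counts include Psmf1, whose other probe sets went the other way. Counted either way, 16.3% of the members were called in pltTGFβ_iTreg, against 28.5% of all genes, and 24.5% in purTGFβ_iTreg, against 29.3%. By the adjusted p alone, 8 members were higher and 20 lower in pltTGFβ_iTreg, beside 3670 and 7326 of 18193 genes. In purTGFβ_iTreg 7 members were higher and 25 lower, beside 3785 and 7757 genes. Both comparisons use the same Tconv arrays, so their calls are not independent. In these bulk samples, fewer cells of a type and less RNA per cell cannot be told apart.

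The median member lay at a log2 difference of −0.12 in pltTGFβ_iTreg and −0.18 in purTGFβ_iTreg from Tconv, beside −0.16 and −0.17 for the median of all genes. Because the whole distribution sits below 0, small negative values of a class are not read here as a fall. All 3 pltTGFβ_iTreg arrays lay below all Tconv arrays for 28 of 49 members (57.1%), against 38.4% of all genes, and above them for 9, against 20.7%. For purTGFβ_iTreg the counts were 29 below (59.2%), against 41.6% of all genes, and 9 above, against 21.1%. The number of calls depends on the Tconv arrays: without Tconv replicate 1, 9 members instead of 4 were called lower in pltTGFβ_iTreg. Over all 18193 genes that count was 2844 instead of 2673. With each array shifted so that the median gene showed no change, an alternative chosen after seeing the data, 1 member (Psmf1) was called lower in pltTGFβ_iTreg and 2 (Psmb6 and Psmf1) in purTGFβ_iTreg. Of all genes, 1601 and 1518 were called lower under that shift, against 2673 and 2707 without it.

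**Figure D1:**
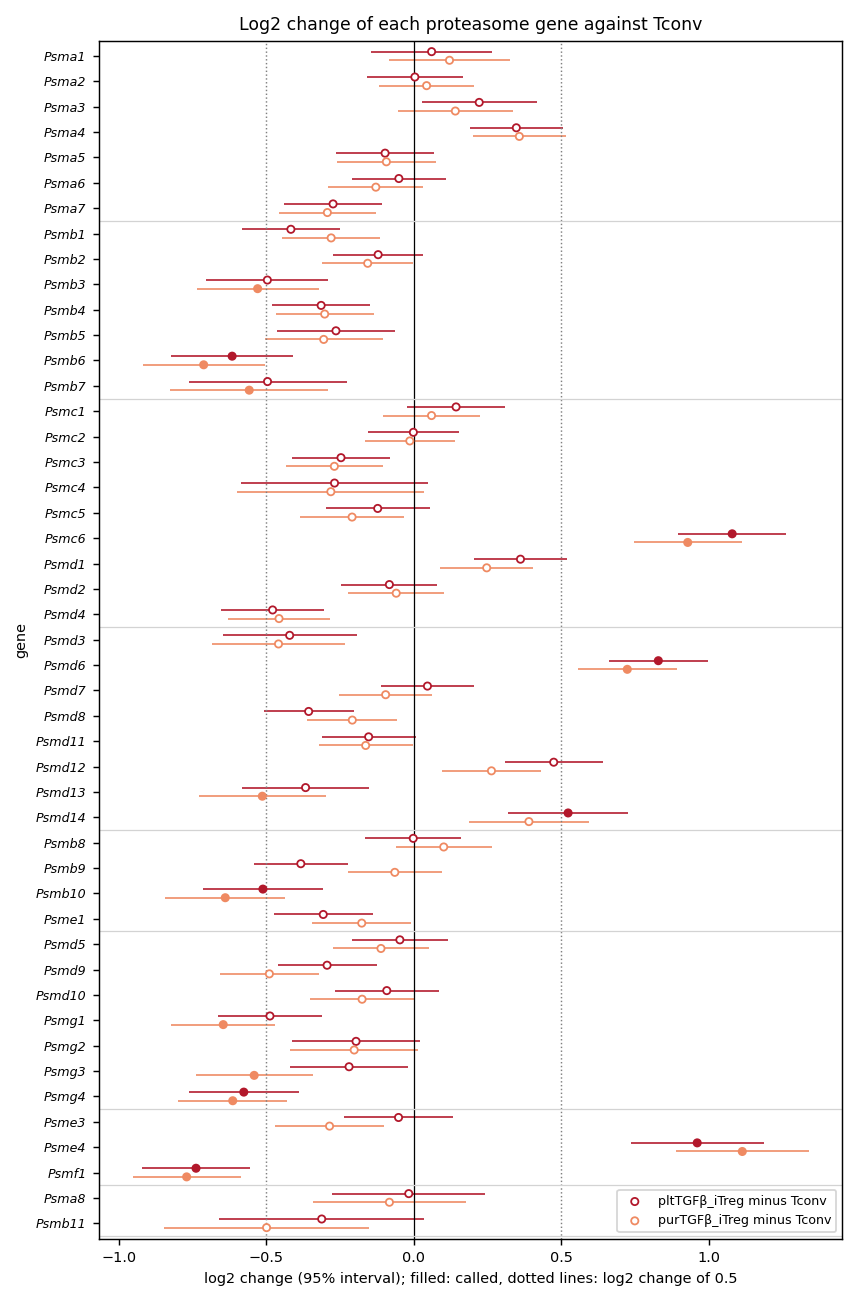
Log2 difference from Tconv (x axis) of each of the 47 proteasome genes (rows, by class), with its 95% interval, for pltTGFβ_iTreg and purTGFβ_iTreg; filled points were called and dotted lines mark a difference of 0.5. Psmc6 (1.08 and 0.93) and Psme4 (0.96 and 1.11) lie farthest above 0, Psmf1 (−0.74 and −0.77) and Psmb6 (−0.62 and −0.71) farthest below (Psmf1 on its brightest probe set, its dimmer ones lying above 0), and all 7 beta subunits lie below 0, of which 1 turned positive in each comparison with the median gene set to no change.

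The 7 alpha subunits, which form the outer rings and the gate of the core, were not called by limma in any comparison, although Psma4 and Psma7 had an adjusted p below 0.1 in both comparisons with Tconv and Psma3 in 1. Their median difference was 0.00 in pltTGFβ_iTreg and 0.04 in purTGFβ_iTreg, above the shift of the median gene. With the median gene set to no change it was 0.16 and 0.21, with 6 of 7 positive in each comparison, and Psma4 was called higher in purTGFβ_iTreg. Psma4 had the largest difference of the class, with 12.44, 12.47 and 12.38 in pltTGFβ_iTreg and 12.44, 12.43 and 12.44 in purTGFβ_iTreg, against 12.11, 12.08 and 12.05 in Tconv. Its iTreg arrays lay above the Tconv arrays, by 0.35 (adjusted p = 0.00196) and 0.36 (adjusted p = 0.00158), short of the fold cutoff. Psma7 lay on the other side, at −0.27 and −0.29, and the other 5 alpha subunits were within −0.13 and 0.22.

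The beta subunits shared a direction. All 7 had every array of both iTreg groups below every Tconv array, a pattern that 38.4% of all genes showed in pltTGFβ_iTreg and 41.6% in purTGFβ_iTreg, and their median difference was −0.42 in pltTGFβ_iTreg and −0.31 in purTGFβ_iTreg. The median stayed negative under quantile normalization (−0.42 and −0.29), with array medians centred (−0.36 and −0.25) and with the median gene set to no change (−0.27 and −0.14), where 1 of the 7 turned positive in each comparison. Under the cutoffs 1 of 7 was called lower in pltTGFβ_iTreg, where 14.7% of all genes were, and 3 of 7 in purTGFβ_iTreg, where 14.9% were.

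Psmb6, the subunit with caspase-like activity, passed in both. It read 11.23, 11.24 and 11.07 in pltTGFβ_iTreg and 11.00, 11.12 and 11.13 in purTGFβ_iTreg, against 11.63, 11.86 and 11.89 in Tconv. The groups did not overlap, and Psmb6 fell by 0.62 ± 0.09 on the log2 scale in pltTGFβ_iTreg (SE; 1.53-fold lower, limma adjusted p = 0.000237) and by 0.71 ± 0.09 in purTGFβ_iTreg (1.64-fold lower, adjusted p = 7.14e-05). Its promoter, with the antioxidant response core next to the start, is printed above.

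Psmb7, the trypsin-like subunit, read 10.94, 11.06 and 10.74 in pltTGFβ_iTreg and 10.69, 10.85 and 11.01 in purTGFβ_iTreg, against 11.21, 11.44 and 11.58 in Tconv. The spread within groups was wider than for Psmb6, though no array overlapped. The log2 differences were −0.50 ± 0.12 (SE, adjusted p = 0.00605) in pltTGFβ_iTreg, on the near side of the fold cutoff, and −0.56 ± 0.12 (adjusted p = 0.00287) in purTGFβ_iTreg, called lower. Psmb3, a structural beta subunit, behaved alike, at −0.50 (adjusted p = 0.00114) and at −0.53 ± 0.09 (adjusted p = 0.000701, called lower). Another probe set of Psmb3 gave −0.57 and −0.63, past the cutoffs in both comparisons. The purTGFβ_iTreg calls of Psmb7 and Psmb3 were lost with array medians centred and, among others, without Tconv replicate 3.

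Psmb5, the chymotrypsin-like subunit that bortezomib inhibits, read 11.74, 11.74 and 11.61 in pltTGFβ_iTreg and 11.62, 11.71 and 11.64 in purTGFβ_iTreg, against 11.81, 12.10 and 11.98 in Tconv. The log2 differences of −0.26 (adjusted p = 0.0343) and −0.31 (adjusted p = 0.017) did not reach the fold cutoff. Psmb1, Psmb2 and Psmb4 lay between −0.42 and −0.12 in pltTGFβ_iTreg and between −0.30 and −0.16 in purTGFβ_iTreg. Tconv replicate 1 was the lowest Tconv array for the class, whose median over genes relative to the Tconv mean was −0.15 on that array and 0.05 on the other two. Without it Psmb7 was at −0.60 in pltTGFβ_iTreg and was called lower.

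**Figure D2:**
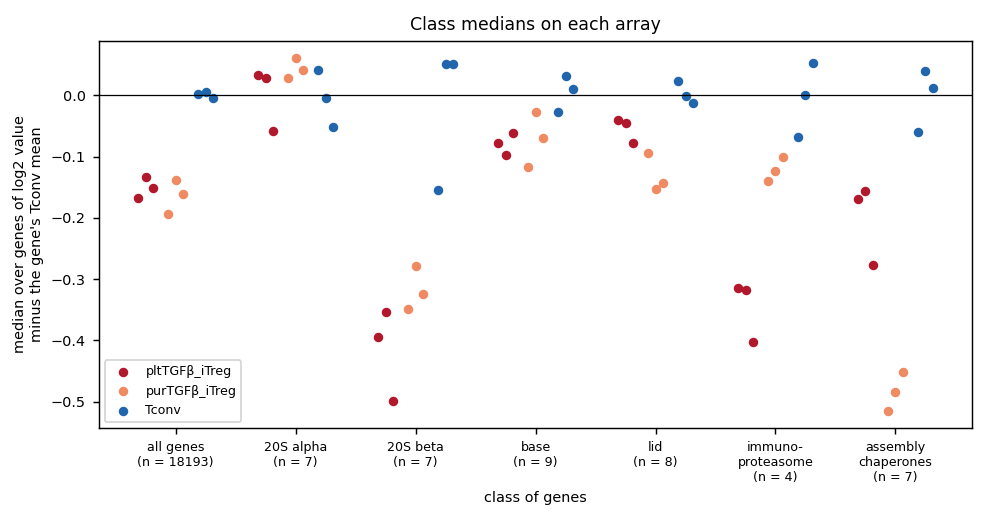
Median over the genes of a class of the log2 value minus each gene's Tconv mean, on each of the 9 arrays, with all 18193 genes at the left. The beta subunits of the iTreg arrays lie between −0.50 and −0.28, apart from the Tconv arrays, while those of the alpha subunits lie between −0.06 and 0.06 and overlap; on this scale the median gene of the iTreg arrays lies between −0.19 and −0.13.

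Among the 9 base subunits, which form the ATPase ring and its scaffold, Psmc6 alone was called. Psmc6 is an ATPase of the unfolding ring. It read 10.86, 10.81 and 10.88 in pltTGFβ_iTreg and 10.82, 10.59 and 10.70 in purTGFβ_iTreg, against 9.71, 9.80 and 9.81 in Tconv. It rose by 1.08 ± 0.08 on the log2 scale in pltTGFβ_iTreg (SE; 2.11-fold, adjusted p = 9.1e-07) and by 0.93 ± 0.08 in purTGFβ_iTreg (1.90-fold, adjusted p = 2.77e-06). Its other probe sets gave 1.44 and 1.38 in pltTGFβ_iTreg and 1.40 and 1.36 in purTGFβ_iTreg, all called higher. The other ATPases of the same ring showed nothing of this size: Psmc1, Psmc2, Psmc3, Psmc4 and Psmc5 lay between −0.27 and 0.14 in pltTGFβ_iTreg and between −0.28 and 0.06 in purTGFβ_iTreg.

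Of the remaining base subunits, the scaffold gene Psmd1 was at 0.36 and 0.25 and the ubiquitin receptor gene Psmd4 at −0.48 and −0.46, both with arrays that did not overlap Tconv and both short of the fold cutoff. Another probe set of Psmd4 gave −0.58 in each comparison and was called lower. Psmc4 was lowest on the array numbered 3 of every group, with 11.01, 11.01 and 10.70 in pltTGFβ_iTreg, 11.03, 11.03 and 10.62 in purTGFβ_iTreg and 11.24, 11.36 and 10.93 in Tconv. Its other bright probe set did not show that pattern in purTGFβ_iTreg or Tconv.

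The lid, which removes ubiquitin chains from the substrate, held genes called in both directions. Psmd6, a scaffold subunit, read 11.44, 11.42 and 11.39 in pltTGFβ_iTreg and 11.33, 11.29 and 11.33 in purTGFβ_iTreg, against 10.69, 10.55 and 10.52 in Tconv. It rose by 0.83 ± 0.08 (SE; 1.78-fold, adjusted p = 3.84e-06) in pltTGFβ_iTreg and by 0.72 ± 0.08 (1.65-fold, adjusted p = 1.09e-05) in purTGFβ_iTreg. Another probe set of Psmd6 gave 0.47 and 0.38, in the same direction and under the fold cutoff.

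Psmd14, the metalloprotease that cleaves ubiquitin chains off the substrate, read 11.79, 11.90 and 11.81 in pltTGFβ_iTreg and 11.70 on all 3 purTGFβ_iTreg arrays, against 11.50, 11.23 and 11.19 in Tconv. It rose by 0.52 ± 0.09 in pltTGFβ_iTreg (SE; 1.44-fold, adjusted p = 0.000687), a call lost without Tconv replicate 2 (0.48), without Tconv replicate 3 (0.46) and without pltTGFβ_iTreg replicate 2 (0.49). In purTGFβ_iTreg the difference was 0.39 (adjusted p = 0.00475), not called. Psmd12, another lid scaffold subunit, was at 0.47 (adjusted p = 0.000328) and 0.26 (adjusted p = 0.0143). Psmd13 went the other way, with 10.03, 10.03 and 10.04 in pltTGFβ_iTreg and 9.85, 9.89 and 9.92 in purTGFβ_iTreg, against 10.18, 10.46 and 10.57 in Tconv. It fell by 0.51 ± 0.10 in purTGFβ_iTreg (SE; 1.43-fold lower, adjusted p = 0.00112), a call lost without Tconv replicate 2 (−0.49), without Tconv replicate 3 (−0.43) or without purTGFβ_iTreg replicate 1 (−0.50), and was at −0.37 in pltTGFβ_iTreg. The other 4 lid genes lay between −0.42 and 0.05 in pltTGFβ_iTreg and between −0.46 and −0.10 in purTGFβ_iTreg.

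As a whole, the 17 lid and base genes had a median difference of −0.08 in pltTGFβ_iTreg and −0.10 in purTGFβ_iTreg, against −0.19 and −0.22 for the 14 core genes and −0.35 and −0.12 for the 4 immunoproteasome genes. With the median gene set to no change, the base and lid medians turned positive, at 0.07 and 0.10 in pltTGFβ_iTreg and 0.11 and 0.04 in purTGFβ_iTreg. Under the same setting the immunoproteasome median was −0.19 in pltTGFβ_iTreg and turned positive, at 0.04, in purTGFβ_iTreg. These class medians were not tested against each other.

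**Figure D3:**
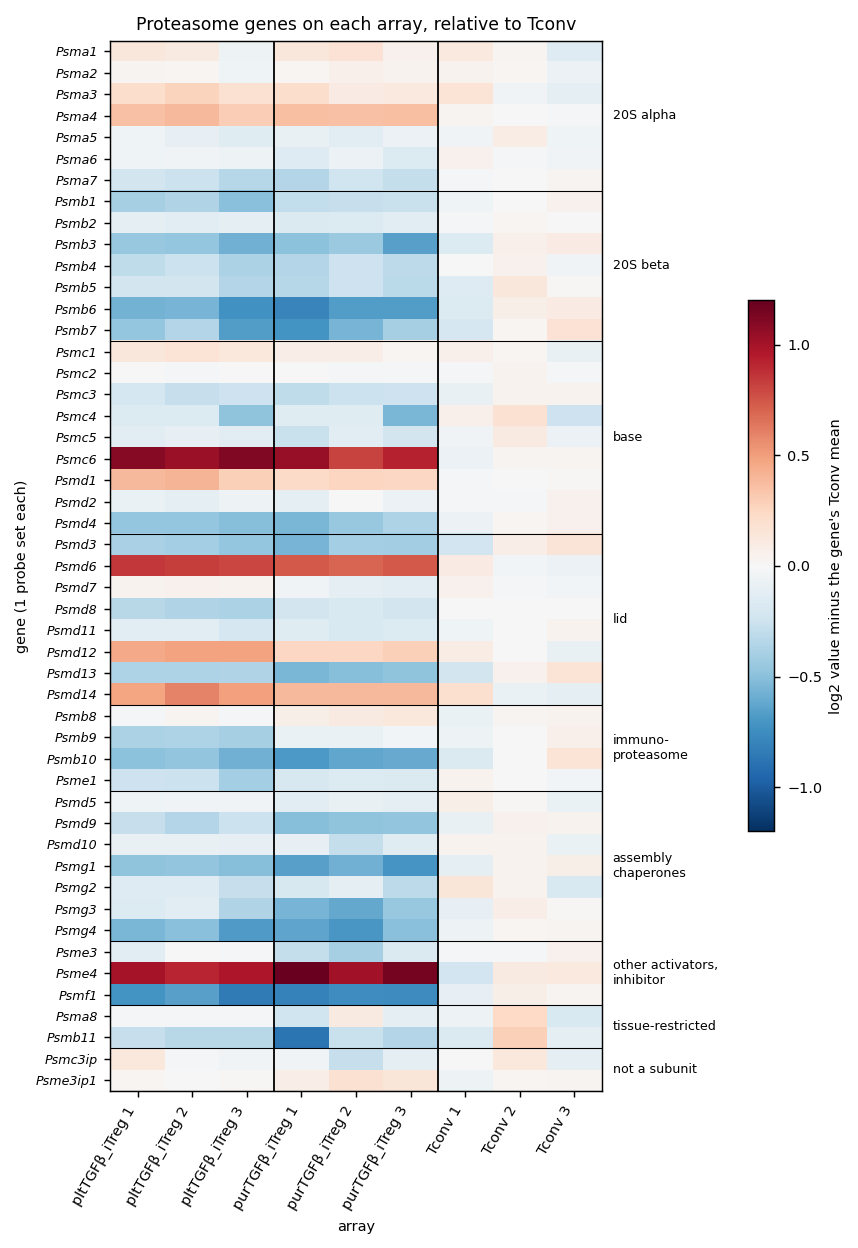
Log2 value minus the gene's Tconv mean for each of the 49 members (rows, by class) on each of the 9 arrays (columns, pltTGFβ_iTreg, purTGFβ_iTreg, then Tconv). Psmc6, Psmd6 and Psme4 stand above their Tconv mean on all 6 iTreg arrays, the beta subunits below it, and Psmb9 is lower on the 3 pltTGFβ_iTreg arrays than on the purTGFβ_iTreg arrays.

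The immunoproteasome genes did not move as a block. Psmb8, which replaces Psmb5, read 12.55, 12.59 and 12.53 in pltTGFβ_iTreg and 12.63, 12.67 and 12.68 in purTGFβ_iTreg, against 12.48, 12.59 and 12.60 in Tconv. All 9 arrays lay between 12.48 and 12.68, and the differences from Tconv were −0.00 (95% interval −0.16 to 0.16, adjusted p = 0.983) in pltTGFβ_iTreg and 0.10 (−0.06 to 0.26, adjusted p = 0.281) in purTGFβ_iTreg. A dimmer, cross-hybridising probe set of Psmb8 gave −0.53 in pltTGFβ_iTreg, called lower, and −0.34 in purTGFβ_iTreg.

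Psmb9, which replaces Psmb6, read 11.55, 11.55 and 11.53 in pltTGFβ_iTreg and 11.84, 11.84 and 11.90 in purTGFβ_iTreg, against 11.87, 11.92 and 11.99 in Tconv. The pltTGFβ_iTreg arrays lay below all others, whereas purTGFβ_iTreg and Tconv overlapped. The difference from Tconv was −0.38 ± 0.07 (SE, adjusted p = 0.00111) in pltTGFβ_iTreg, under the fold cutoff, and −0.06 (95% interval −0.22 to 0.09, adjusted p = 0.482) in purTGFβ_iTreg.

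Psmb10, which replaces Psmb7, was the only immunoproteasome gene of the 4 called by the chosen probe sets. It read 10.41, 10.43 and 10.33 in pltTGFβ_iTreg and 10.21, 10.27 and 10.30 in purTGFβ_iTreg, against 10.73, 10.91 and 11.06 in Tconv. It fell by 0.51 ± 0.09 in pltTGFβ_iTreg (SE; 1.43-fold lower, adjusted p = 0.00082) and by 0.64 ± 0.09 in purTGFβ_iTreg (1.56-fold lower, adjusted p = 0.000148). The first of these calls lies at the fold cutoff: it was lost with array medians centred (−0.46), without Tconv replicate 3 (−0.43) and without pltTGFβ_iTreg replicate 3 (−0.48). With the median gene set to no change both calls were lost, at −0.36 in pltTGFβ_iTreg and −0.47 in purTGFβ_iTreg. Psme1, a subunit of the activator that caps the core particle, read 11.94, 11.93 and 11.78 in pltTGFβ_iTreg and 12.00, 12.03 and 12.02 in purTGFβ_iTreg, against 12.24, 12.18 and 12.16 in Tconv. Its differences were −0.31 ± 0.08 (SE, adjusted p = 0.00646) and −0.18 (adjusted p = 0.0773), neither past the fold cutoff.

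Within each array, the immunoproteasome subunit was set against the constitutive subunit it replaces, as the difference of their log2 values with the Tconv mean at 0. Psmb8 minus Psmb5 was 0.21, 0.25 and 0.33 in pltTGFβ_iTreg and 0.41, 0.36 and 0.45 in purTGFβ_iTreg, against 0.07, −0.10 and 0.03 in Tconv. Psmb9 minus Psmb6 was 0.19, 0.18 and 0.33 in pltTGFβ_iTreg and 0.71, 0.59 and 0.64 in purTGFβ_iTreg, against 0.11, −0.07 and −0.04 in Tconv. For both pairs all iTreg arrays lay above the Tconv arrays and the purTGFβ_iTreg arrays above the pltTGFβ_iTreg arrays. Psmb10 minus Psmb7 averaged −0.02 ± 0.11 in pltTGFβ_iTreg and −0.08 ± 0.12 in purTGFβ_iTreg (SD, n = 3 each), with all groups overlapping. These differences show unequal change of the genes in a pair and say nothing of which level is higher in the cell. They were not tested and are given as a description.

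**Figure D4:**
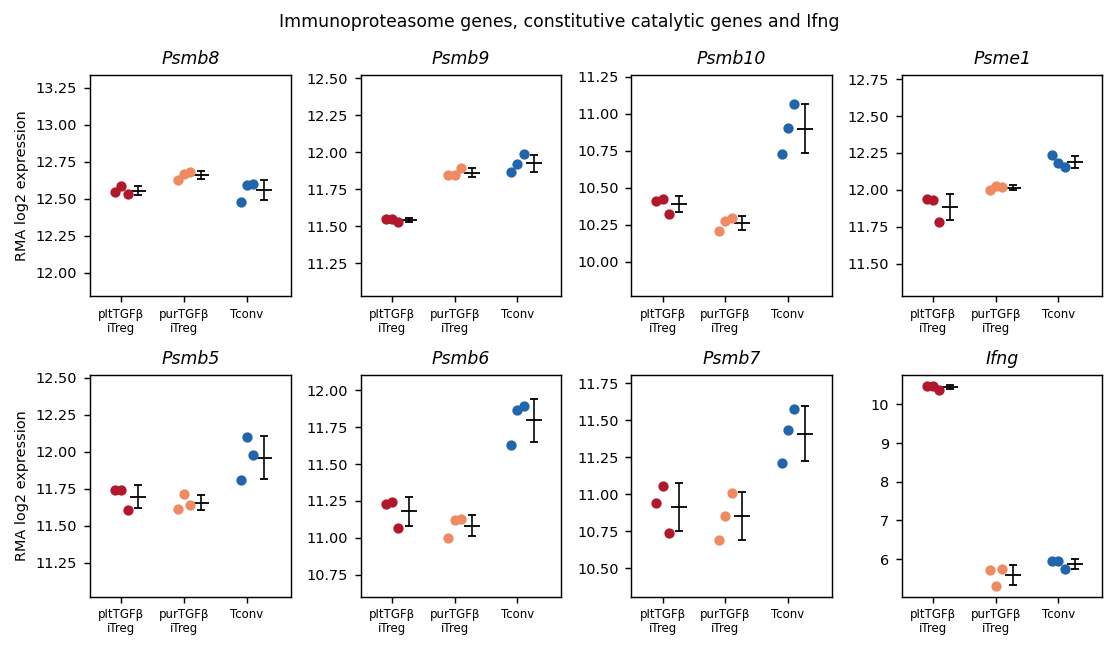
Log2 expression on each array (points) with the group mean and SD (bars, n = 3) for the 4 immunoproteasome genes, the constitutive catalytic genes Psmb5, Psmb6 and Psmb7, and Ifng, the interferon gamma gene; no axis starts at 0, and the Ifng axis has a wider range than the others. Psmb8 overlaps between pltTGFβ_iTreg and Tconv, Psmb9 is lowest on the pltTGFβ_iTreg arrays (11.53 to 11.55), and Psmb10, Psmb5, Psmb6 and Psmb7 have all iTreg arrays below the Tconv arrays.

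The chaperones that assemble the proteasome lay below the Tconv mean. Psmg1 and Psmg2 act as a pair, as do Psmg3 and Psmg4, in building the alpha ring, and Psmd5, Psmd9 and Psmd10 help to build the base. The median of the 7 was −0.22 in pltTGFβ_iTreg and −0.49 in purTGFβ_iTreg. Of the 7, 1 was called lower in pltTGFβ_iTreg, where 14.7% of all genes were, and 3 in purTGFβ_iTreg, where 14.9% were. The medians were −0.07 and −0.32 with the median gene set to no change, under which none of the calls of the class held.

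Psmg4 read 9.29, 9.33 and 9.16 in pltTGFβ_iTreg and 9.20, 9.14 and 9.33 in purTGFβ_iTreg, against 9.78, 9.86 and 9.87 in Tconv. It fell by 0.58 ± 0.08 in pltTGFβ_iTreg (SE; 1.49-fold lower, adjusted p = 0.000167) and by 0.61 ± 0.08 in purTGFβ_iTreg (1.53-fold lower, adjusted p = 9.71e-05). Psmg1 read 10.64, 10.64 and 10.61 in pltTGFβ_iTreg and 10.46, 10.54 and 10.40 in purTGFβ_iTreg, against 11.00, 11.16 and 11.18 in Tconv. It fell by 0.65 ± 0.08 in purTGFβ_iTreg (SE; 1.57-fold lower, adjusted p = 4.37e-05), and its difference of −0.49 in pltTGFβ_iTreg (adjusted p = 0.000417) was just short of the fold cutoff.

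Psmg3 read 9.77, 9.81 and 9.58 in pltTGFβ_iTreg and 9.38, 9.33 and 9.49 in purTGFβ_iTreg, against 9.85, 10.02 and 9.95 in Tconv. The groups did not overlap, with purTGFβ_iTreg lowest and Tconv highest. It fell by 0.54 ± 0.09 in purTGFβ_iTreg (SE; 1.46-fold lower, adjusted p = 0.000444) and was at −0.22 in pltTGFβ_iTreg (adjusted p = 0.068). Psmg2, Psmd5, Psmd9 and Psmd10 lay between −0.29 and −0.05 in pltTGFβ_iTreg and between −0.49 and −0.11 in purTGFβ_iTreg, and were not called.

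Psme4, the nuclear activator known as PA200, rose in both iTreg groups. It read 9.86, 9.77 and 9.83 in pltTGFβ_iTreg and 10.04, 9.87 and 10.01 in purTGFβ_iTreg, against 8.63, 8.96 and 8.98 in Tconv. The increase was 0.96 ± 0.10 in pltTGFβ_iTreg (SE; 1.95-fold, adjusted p = 1.3e-05) and 1.11 ± 0.10 in purTGFβ_iTreg (2.16-fold, adjusted p = 3.49e-06). Of its 5 other probe sets the brighter pair was called higher as well, at 0.67 and 1.08 in pltTGFβ_iTreg and 0.90 and 1.33 in purTGFβ_iTreg, while the 3 dim ones were not called. Psme3, a nuclear activator of the same family as Psme1, was at −0.05 and −0.29 and was not called.

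Psmf1, which encodes the proteasome inhibitor PI31, gave opposite readings on different probe sets. The brightest read 8.49, 8.55 and 8.35 in pltTGFβ_iTreg and 8.39, 8.45 and 8.45 in purTGFβ_iTreg, against 9.10, 9.27 and 9.23 in Tconv. On it Psmf1 fell by 0.74 ± 0.08 in pltTGFβ_iTreg (SE; 1.67-fold lower, adjusted p = 2.03e-05) and by 0.77 ± 0.08 in purTGFβ_iTreg (1.71-fold lower, adjusted p = 1.33e-05). The 3 dimmer probe sets lay at 1.02, 0.94 and 0.62 in pltTGFβ_iTreg, all called higher, and at 1.00, 0.94 and 0.47 in purTGFβ_iTreg, of which the first pair was called higher. Psmf1 was the only one of the 27 members with several probe sets that was called in both directions, and its direction is therefore not settled by these arrays.

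**Figure D5:**
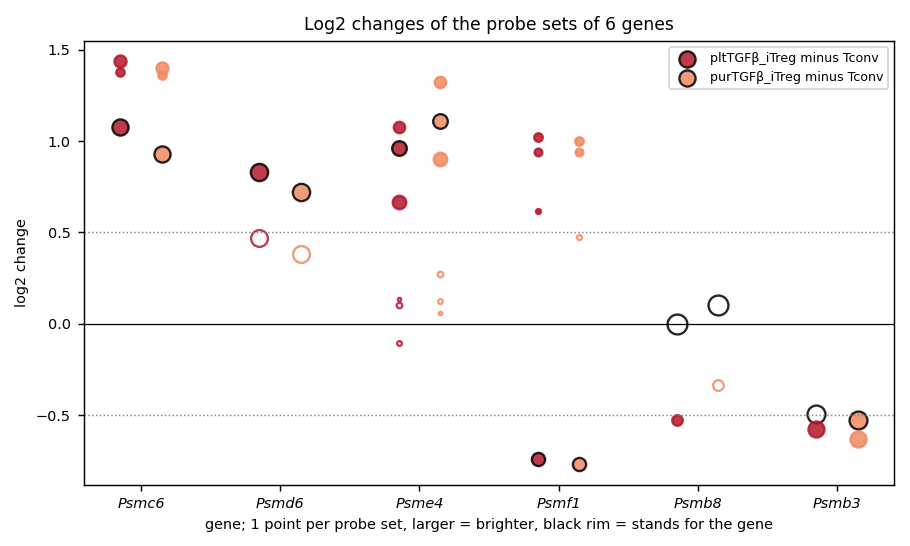
Log2 difference from Tconv on every probe set of 6 members, for pltTGFβ_iTreg and purTGFβ_iTreg; larger points are brighter probe sets, filled points were called, a black rim marks the probe set that stands for the gene, and dotted lines mark a difference of 0.5. The probe sets of Psmc6 lie on the same side of 0, while those of Psmf1 lie at −0.74 and −0.77 for the brightest and between 0.47 and 1.02 for the others.

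Between the iTreg groups no member was called, where 4.11% of all genes were called either way, 1.54% higher and 2.57% lower in pltTGFβ_iTreg. The limma count of 0 compares with 5 members at an unadjusted p under 0.05 (4 higher and 1 lower in pltTGFβ_iTreg). For that unadjusted cutoff no share over all genes was computed. An unmoderated contrast over the 9 arrays also called 0. All pltTGFβ_iTreg arrays lay above all purTGFβ_iTreg arrays for 15 of 49 members, against 13.6% of all genes, and below them for 7 (14.3%), against 14.6%. Psmb9 and Psmg3 had an adjusted p under 0.1 without the fold cutoff, where 770 of 18193 genes were higher and 998 lower in pltTGFβ_iTreg. Psmb9 was at −0.32 ± 0.07 in pltTGFβ_iTreg relative to purTGFβ_iTreg (SE, 95% interval −0.48 to −0.16, adjusted p = 0.0249). Psmg3 was at 0.32 ± 0.09 (SE, 95% interval 0.12 to 0.52, adjusted p = 0.0702), on the probe set described above. For Psmb8 the difference was −0.10 (95% interval −0.27 to 0.06), for Psmb10 0.13 (adjusted p = 0.618) and for Psme1 −0.13 (adjusted p = 0.496).

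Genes outside the symbol rule that serve the proteasome were set beside the members. Of 19 measured cofactors and regulators, 7 were called higher and 2 lower in pltTGFβ_iTreg against Tconv, and 4 higher and 2 lower in purTGFβ_iTreg. Their median log2 difference was 0.32 and 0.23, beside −0.16 and −0.17 for all genes. Of all genes, 13.9% were called higher and 14.7% lower in pltTGFβ_iTreg, and 14.5% and 14.9% in purTGFβ_iTreg. Nfe2l1, the transcription factor that raises proteasome genes when proteasome activity is low, read 7.58, 7.63 and 7.59 in pltTGFβ_iTreg and 7.47, 7.71 and 7.73 in purTGFβ_iTreg, against 8.83, 8.99 and 9.11 in Tconv. It fell by 1.38 ± 0.10 in pltTGFβ_iTreg (SE; 2.60-fold lower, adjusted p = 4.82e-07) and by 1.34 ± 0.10 in purTGFβ_iTreg (2.54-fold lower, adjusted p = 5.27e-07).

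Ube3a, a ubiquitin ligase that binds the proteasome, rose by 1.54 (2.91-fold) in pltTGFβ_iTreg and by 1.40 (2.64-fold) in purTGFβ_iTreg. Uchl5, a deubiquitinase of the regulatory particle, rose by 1.10 (2.14-fold, adjusted p = 1.64e-06) and by 0.88 (1.84-fold). Pomp, the maturation factor of the core particle, was at 0.01 and −0.09 and was not called. Of 10 measured genes of ubiquitin and its activation 4 were called higher in each iTreg group, where 13.9% and 14.5% of all genes were. The medians of the list were 0.39 and 0.29. By limma 0 were called lower, with 1 lower at an unadjusted p under 0.05 in each comparison. The share of all genes at that unadjusted p was not computed. Among them Uba6, a ubiquitin-activating enzyme, rose by 1.84 (3.57-fold) in pltTGFβ_iTreg and by 1.47 (2.76-fold) in purTGFβ_iTreg.

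The genes that act after the immunoproteasome in MHC class I loading were mixed. Of 17 measured, 5 were called higher in each iTreg group, where 13.9% and 14.5% of all genes were. Medians over the list were 0.03 and 0.08. The peptidase gene Lap3, at −0.60, was called lower in purTGFβ_iTreg, where 14.9% of all genes were. In pltTGFβ_iTreg 0 of the 17 were called lower by limma, where 14.7% of all genes were. At an unadjusted p under 0.05, a cutoff for which no share over all genes was computed, 4 of the 17 were lower there. Tpp2, a cytosolic peptidase that trims proteasome products, rose by 1.07 (adjusted p = 3.18e-06) in pltTGFβ_iTreg and by 1.37 (adjusted p = 3.88e-07) in purTGFβ_iTreg. Pdia3, a chaperone of the loading complex, rose by 1.23 and 1.35, and the aminopeptidase gene Erap1 by 0.68 and 0.55. Tap1, the transporter gene next to Psmb9, read 10.23, 10.33 and 10.09 in pltTGFβ_iTreg and 10.36, 10.48 and 10.40 in purTGFβ_iTreg, against 10.53, 10.67 and 10.65 in Tconv. Its differences of −0.40 (adjusted p = 0.00298) and −0.20 were not called, and pltTGFβ_iTreg was at −0.19 relative to purTGFβ_iTreg (adjusted p = 0.321). Nlrc5, the transactivator of MHC class I genes, rose by 0.50 (adjusted p = 0.000279) and by 0.53 (adjusted p = 0.000183), the first of them at the fold cutoff.

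Interferon gamma itself, the cytokine that induces immunoproteasome subunits in many cells, was measured in the same arrays. Ifng read 10.49, 10.47 and 10.39 in pltTGFβ_iTreg and 5.71, 5.29 and 5.75 in purTGFβ_iTreg, against 5.95, 5.95 and 5.74 in Tconv. It was 29.2-fold higher in pltTGFβ_iTreg than in purTGFβ_iTreg (log2 4.87 ± 0.12, SE, adjusted p = 3.3e-09). In the same comparison Psmb9 was at −0.32, Psmb8 at −0.10 and Psmb10 at 0.13, none of them called. Of 23 measured genes of the interferon gamma response, 8 were called higher in pltTGFβ_iTreg against Tconv, where 13.9% of all genes were. In purTGFβ_iTreg against Tconv 8 were called higher and 3 lower, where 14.5% and 14.9% of all genes were. The medians of the list were 0.41 in pltTGFβ_iTreg and 0.29 in purTGFβ_iTreg. By limma 0 of the 23 were called lower in pltTGFβ_iTreg against Tconv, where 14.7% of all genes were. At an unadjusted p under 0.05, a cutoff for which no share over all genes was computed, 2 were lower there. In pltTGFβ_iTreg against purTGFβ_iTreg 3 of the 23 were called higher and 0 lower, where 1.54% and 2.57% of all genes were. At an unadjusted p under 0.05, 7 were higher and 6 lower. No share over all genes was computed at that cutoff, so these counts cannot be set against the shares above. The 3 called were Ifng, the GTPase gene Gbp7 (1.08, adjusted p = 0.000145, 2.12-fold) and the checkpoint ligand gene Cd274 (0.61, adjusted p = 0.00109, 1.52-fold). Against Tconv, Gbp7 was at 1.22 in pltTGFβ_iTreg, called higher, and at 0.13 in purTGFβ_iTreg, not called. Cd274 was not higher than Tconv in pltTGFβ_iTreg (−0.11, limma adjusted p = 0.322) and was called lower in purTGFβ_iTreg (−0.71). Irf1, a transcription factor that interferon gamma induces, was at 0.41 in pltTGFβ_iTreg, not called, and rose by 0.64 (1.55-fold, adjusted p = 2.22e-05) in purTGFβ_iTreg. The GTPase gene Iigp1 rose by 2.67 (6.38-fold) in pltTGFβ_iTreg and by 2.97 (7.81-fold) in purTGFβ_iTreg.

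The genes matched only by spelling did not pass the test. Psmc3ip, a recombination factor of meiosis, was at 0.02 and −0.14, and Psme3ip1, a binding partner of Psme3, at 0.01 and 0.14.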

How the data were processed

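RNA of 9 mouse CD4 T cell samples was measured on Affymetrix arrays. The authors deposited log2 expression values per probe set, summarised by Robust Multichip Analysis in Expression Console per the series' design text, and tested them with Partek Genomics Suite 6.6. RMA compresses values near background, and no detection calls were used here. Precision is limited by the small number of arrays.

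Of 45101 probe sets, 64 controls were left out and 45037 tested. Of these 34945 had 1 symbol, 932 had several and 9160 were not named. A single probe set stood for each of 18193 genes: the highest mean over 9 arrays, and a cross-hybridising one only where a gene had no other. All 49 members matched RefSeq by identifier.

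A limma 3.58.1 model (R 4.3.3) with a mean per group was fitted to all 9 arrays. Contrasts were tested two-sided with moderated variances and Benjamini-Hochberg adjustment over all probe sets, and called at an adjusted p below 0.1 with a log2 difference of more than 0.5 in size. The fit was tested on simulated data. Promoters came from RefSeq, assembly GRCm38.p6. Python 3.11.15 with pandas 2.3.3 and matplotlib 3.10.9 served for tables and figures.

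Every gene of the symbol rule could be named. Of each other list, up to 4 genes with the lowest adjusted p in a comparison were named, with Ifng, Irf1, Nlrc5 and Nfe2l1 whatever their values. Pomp and Tap1 were named in addition, after their values were seen. Members, lists and classes were chosen with earlier results of these data known. A planned list of genes most like Psmb8 over the arrays is not reported, since the arrays fall into separate groups.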

Additional observations from a re-analysis of the deposited data

Results flagged for a closer look

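2 members differed between the iTreg groups in the contrast that tests the difference of their changes from Tconv, without reaching the fold cutoff. At the same adjusted p, 770 of all 18193 genes were higher and 998 lower in pltTGFβ_iTreg, so the count is not particular to the members. Psmb9 was at −0.32 in pltTGFβ_iTreg relative to purTGFβ_iTreg (log2; lower on 3 of 3 arrays; limma adjusted p = 0.0249). Psmg3 was at 0.32 (higher on 3 of 3 arrays, limma adjusted p = 0.0702), while its dimmer probe set was at 0.02.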

How the results depend on the processing

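Counts of called members moved with the call cutoffs, the centring and the arrays included. For pltTGFβ_iTreg against Tconv (4 higher, 4 lower) the counts were 8 and 20 without the fold cutoff and 1 and 0 at an adjusted p under 0.05 with a 2-fold cutoff, and lower calls were 7 after quantile normalization. With the median gene set to no change 6 were higher and 1 lower. Of all 18193 genes, 3670 were called higher and 7326 lower without the fold cutoff, and 1281 and 558 at 2-fold. With the median gene set to no change 3066 and 1601 of all genes were called. After quantile normalization 3497 of all genes were called lower. For purTGFβ_iTreg against Tconv (3 higher, 9 lower) they were 7 and 25 without the fold cutoff and 1 and 0 at 2-fold. Lower calls there were 5 with array medians centred and 5 with a gene's probe sets averaged, and with the median gene set to no change 5 were higher and 2 lower. Of all 18193 genes, 3785 were called higher and 7757 lower without the fold cutoff, and 1416 and 617 at 2-fold. With the median gene set to no change 3248 and 1518 of all genes were called. Lower calls over all genes were 2181 with array medians centred and 2197 with probe sets averaged. Between the iTreg groups (0 and 0) 1 was higher and 1 lower without the fold cutoff, where 770 and 998 of all genes were. The cause was not tested beyond what each setting's construction shows.

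Leaving out each array in turn gave 3 to 5 higher and 3 to 9 lower calls in pltTGFβ_iTreg, with 9 without Tconv replicate 1. For purTGFβ_iTreg the counts were 3 to 3 higher and 7 to 12 lower, and between the iTreg groups 0 to 0. Over all 18193 genes, 2478 to 2558 were higher and 2625 to 2941 lower in pltTGFβ_iTreg. In purTGFβ_iTreg 2595 to 2679 of all genes were higher and 2487 to 3085 lower. Between the iTreg groups 268 to 309 of all genes were higher and 418 to 471 lower. Psmf1 reversed with the mean of its probe sets, to 0.46 in pltTGFβ_iTreg and 0.41 in purTGFβ_iTreg. Psme4 (0.47, pltTGFβ_iTreg) and Psmg4 (−0.29 and −0.36) were no longer called under that mean. It gives equal weight to dim probe sets, which averaged 4.24, 3.76 and 2.93 over the 9 arrays for Psme4. The other probe set of Psmg4 averaged 2.80. Over all genes, the share of higher among called genes against Tconv was 48.5% in pltTGFβ_iTreg and 49.3% in purTGFβ_iTreg, 38.4% and 38.6% after quantile normalization, 55.3% and 56.5% with medians centred, and 65.7% and 68.1% with the median gene set to no change. For the single genes followed, 13 of the leave-one-out values lost a call and 3 gained one, with 317 on the same side.

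The main fit did not pair the samples by replicate number. Correlations of same-numbered arrays' deviations from their group means lay between −0.12 and 0.26. Between pltTGFβ_iTreg and purTGFβ_iTreg they were 0.19, 0.26 and 0.09, against −0.24 to 0.05 for arrays of different number. A pairing of the iTreg arrays by number is therefore not excluded. With the replicate number as a block, the counts were 4 higher and 4 lower, 3 and 9, and 0 and 0, the same genes as without it.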
